A study of Mus musculus with 12 samples.

Results

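The day 20 libraries of the synapse fraction are 1 library of the arm L and 1 library of the arm C, which make 2 of the 12 samples of the study. They were chosen by their titles and their day, with no measured value used. The study counted hippocampal mRNA of C57BL6/J mice in a synapse fraction (days 1, 6 and 20, with 1 L and 1 C library each) and in whole homogenates (day 6, with 3 L and 3 C libraries). The preparation of the fraction, the handling of the animals in either arm, their age, and whether RNA of several animals was pooled are not stated in the labels. In the deposited day 20 table the L library stands under the letter T and the C library under the letter C. The homogenate samples are described with the word Training in the arm L and Control in the arm C. The day 6 synapse columns carry the word Learned for L and Control for C, so the pair is read as learned against control. No genotype, transgene or agent is named for either arm.

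A synapse fraction is a part of a brain homogenate that is enriched in pinched-off nerve endings and the postsynaptic membrane attached to them, and it holds mRNAs that neurons carry into dendrites. It also takes along material of astrocyte processes, myelin, vessels and the tissue that borders the hippocampus. In the hippocampus, neuronal activity switches on immediate early genes within minutes, among them the transcription factor genes Fos and Egr1 and the synaptic scaffold gene Arc, and their mRNAs are widely read as a trace of recent activity.

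The L library held 1.06e+07 counts and the C library 1.14e+07, within the range of 9.10e+06 to 1.595e+07 over the 12 libraries. Of the 17130 genes listed, 9306 had a mean of at least 10 CPM (a gene's counts scaled to the library total), and these held 98.2% of the counts in each library. The dendritic mRNA of Camk2a, a kinase subunit of the postsynaptic density, stood at 4026 CPM in L and 3708 CPM in C, and that of the scaffold gene Shank1 at 1521 CPM in L and 1590 CPM in C. The CA1 marker Wfs1 (154 CPM in L and 170 CPM in C) and the dentate gyrus marker C1ql2 (48.3 CPM in L and 48.1 CPM in C) were both present. Markers of glia were present too: the myelin gene Mbp was at 9436 CPM in L and 8374 CPM in C, the astrocyte water channel gene Aqp4 at 374 CPM in L and 335 CPM in C, and the microglial receptor gene Cx3cr1 at 95.4 CPM in L and 98.1 CPM in C. Against the day 6 homogenates, the pair's mean log2 level had a median difference of -0.10 over postsynaptic density genes and -0.06 over vesicle and release genes. It was 0.27 over dendritic mRNAs, 1.21 over astrocyte, 1.39 over microglial and 0.97 over choroid plexus genes. Fraction, day and table cannot be told apart in these values, and an enrichment of synapses was not tested.

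With 1 library per arm there was no test, no replicate error and no p-value. Each difference is a log2 ratio of L over C, taken from CPM scaled by the trimmed mean of M-values (TMM) with a prior count of 2. A 95% interval of that ratio, from the exact Clopper-Pearson interval of the counts, covers counting error only. It holds no difference between animals or preparations. PCR copies of a molecule were not marked, so the interval may be too narrow for counting error as well. The spread of single libraries was known only from the day 6 homogenates, where the SD of a difference between 2 libraries of the same arm had a median of 0.20 log2 units over genes. That SD belongs to another fraction and another day, and is given below as a yardstick, not as a test. For a single gene it rests on 3 libraries per arm and is itself uncertain.

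The libraries of L and C were close for most genes. The ratios had a median of 0.00 and quartiles of -0.11 and 0.11, and the central 95% of them ran from -0.41 to 0.36. Of the 9306 genes, 4757 (51.1%) had a ratio above 0. The counting interval lay wholly above 0 for 1375 genes (14.8%) and wholly below 0 for 1352 (14.5%). At least 1.5-fold higher in L were 20 genes (0.215%), and at least 1.5-fold lower were 60 (0.645%). Past 2-fold there were 2 genes higher in L (0.0215%), the pituitary hormone genes Prl and Gh, and 3 lower (0.0322%), of which Tom1 and Acpl2 carry a gene name.

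Most of the genes past 1.5-fold were near the lower limit of expression. Of the 20 higher genes 13 had a mean under 20 CPM, and of the 60 lower genes 43. The median absolute deviation of the ratios narrowed from 0.17 at 10 to 20 CPM (2068 genes, 56 past 1.5-fold) to 0.07 above 100 CPM (2325 genes, 4 past 1.5-fold). Of the 80 genes past 1.5-fold, 68 had a ratio larger than the homogenate SD of a difference for that gene, and 36 had one larger than 2 such SDs. These 80 genes were picked for a large ratio, and that SD had a median of 0.20 over genes. Passing it is therefore in large part set by the choice, and the share over all genes is not given here. The plot of ratio against level shows how few genes leave the central band.

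**Figure D1:**
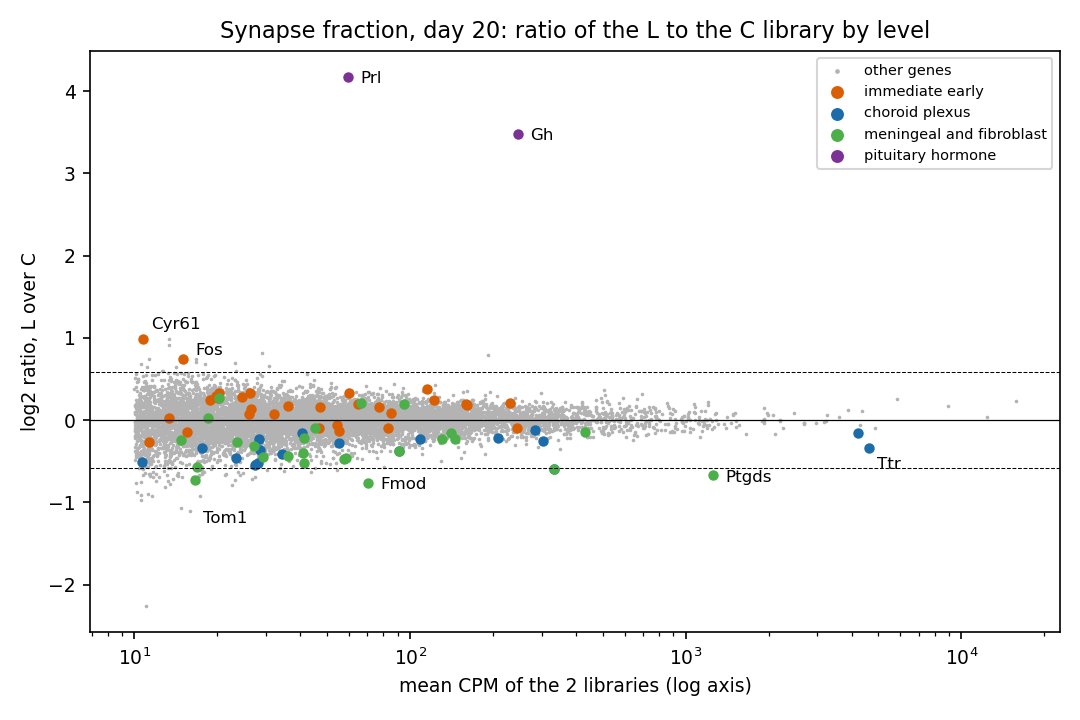
Log2 ratio of the L library over the C library (vertical axis) against the mean CPM of the 2 libraries (horizontal log axis) for the 9306 genes of the synapse fraction on day 20. Each point is a gene, colours mark 4 gene lists, and dashed lines mark 1.5-fold. Prl at 4.17 and Gh at 3.48 stand far above all other genes, and the choroid plexus points lie below 0.

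The largest differences of the pair belonged to hormones of the anterior pituitary, a gland outside the brain. Gh, the growth hormone gene, had 4774 counts in L and 460 in C, an 11.2-fold higher share of the library in L (95% counting interval 10.2 to 12.4; log2 ratio 3.48). Prl, the prolactin gene, had 1199 counts in L and 70 in C, 18.5-fold higher in L (14.6 to 23.9; log2 ratio 4.17). Both hormones are made by related cells of the gland, the somatotrophs and lactotrophs. Under the level of 10 CPM, Cga, the gene of the subunit shared by the glycoprotein hormones, had 90 counts in L and 1 in C, a ratio of 97.3 with an interval of 17.0 to 3887.

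The subunit genes that pair with Cga were at lower counts. Fshb had 14 counts in L and 0 in C, at least 5.05-fold higher in L when the 0 is set to the 3 counts it allows, and with a lower limit of 3.59 when the counting error of both libraries is taken in. Lhb had 16 counts in L and 4 in C, a ratio of 4.33 with an interval of 1.40 to 17.8, and Tshb had 4 counts in L and 0 in C, with a lower limit of 0.714. Pomc, the precursor gene of corticotropin, had nearly the same counts in both libraries, 79 in L and 74 in C, a ratio of 1.15 with an interval of 0.83 to 1.61. All 7 hormone genes of the list thus had a ratio above 0, but the intervals of Pomc and Tshb held 1, and 5 of the 7 lay under 10 CPM.

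The same genes varied widely over the other libraries, in both arms. Summed over the 7 genes, the level was 584 CPM in L and 53.3 CPM in C on day 20, 71.2 CPM in L and 148 CPM in C on day 1, and 12.5 CPM in L and 9.10 CPM in C on day 6, where 3 of the 7 genes are not listed. In the homogenates it was 1.61, 2.31 and 2.50 CPM in the L libraries, against 47.4, 3.61 and 79.7 CPM in the C libraries. So L was above C in the synapse fraction on day 20 and, by little, on day 6. It was below C in the synapse fraction on day 1 and in every homogenate comparison. Between homogenates of 1 arm the SD of a difference was 2.49 log2 units for Gh and 2.39 for Prl, less than the day 20 ratios of these genes. The part of pituitary tissue or of its RNA in these values was not tested.

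**Figure D2:**
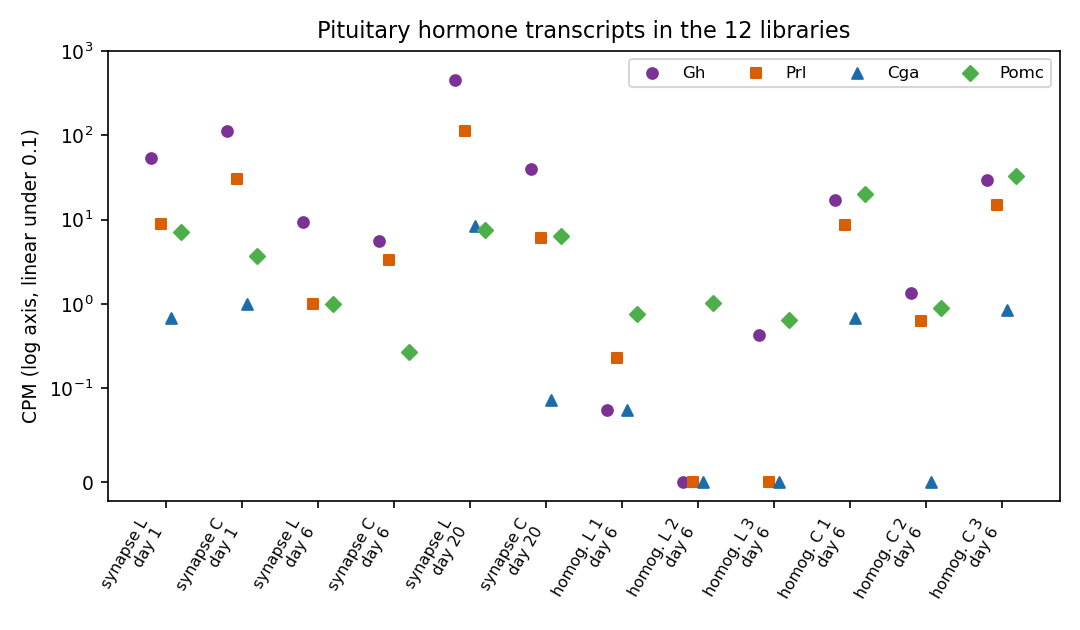
CPM of the pituitary hormone genes Gh, Prl, Cga and Pomc in each of the 12 libraries (vertical log axis, linear under 0.1), with the L library left of the C library on each day of the synapse fraction and the homogenates of day 6 on the right. The day 20 L library holds 452 CPM of Gh and 113 CPM of Prl, the highest of the 12, and its Pomc lies among the other libraries.

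The promoter windows of Prl and Cga are shown because both genes had many more counts in L. The windows are the 250 bases before the gene start in RefSeq (GRCm38.p6). For Prl and Cga the capitals mark the letters TATNCAT, a form of the site bound by the pituitary factor Pit-1, searched on both strands. Prl held 2 matches, 148 and 47 bases before the start (chr13:27057320-27057569, plus strand), and Cga held 0 (chr4:34893529-34893778, plus strand). Of 32851 promoter windows of this length, 7.92% held the motif.
Prl: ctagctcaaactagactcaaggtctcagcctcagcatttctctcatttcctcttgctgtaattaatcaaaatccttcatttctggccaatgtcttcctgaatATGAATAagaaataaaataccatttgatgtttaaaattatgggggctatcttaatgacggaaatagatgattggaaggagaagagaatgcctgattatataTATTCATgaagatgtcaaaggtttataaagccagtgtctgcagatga
Cga: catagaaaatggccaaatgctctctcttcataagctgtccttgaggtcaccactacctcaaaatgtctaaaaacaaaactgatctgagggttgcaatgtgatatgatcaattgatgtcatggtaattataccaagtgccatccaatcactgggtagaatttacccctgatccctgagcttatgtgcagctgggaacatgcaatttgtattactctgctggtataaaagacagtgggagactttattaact

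Immediate early transcripts were higher in L as a group. Of the 44 genes listed, 30 passed 10 CPM, and 23 of these had a ratio above 0, with a median of 0.18, beside 51.1% above 0 and a median of 0.00 over all genes. The counting interval lay above 0 for 14 of the 30 and below 0 for 1. The median exceeded the SD of a difference between homogenates for this list, which was 0.12. Over all 44 genes, 33 had a ratio above 0.

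The leading members were Cyr61 and Fos. Cyr61, a secreted matrix protein gene induced by growth factors and mechanical load, had 152 counts in L and 82 in C (log2 ratio 0.99, interval 0.61 to 1.41). Fos, a subunit gene of the AP-1 transcription factor, had 200 counts in L and 128 in C (0.75, interval 0.43 to 1.09). Both were above 0 in counting error, and among the 15 highest genes of the pair. Their homogenate SDs of a difference were 1.03 for Cyr61 and 0.62 for Fos, so Cyr61 did not exceed its yardstick. The promoter windows of both are given with the letters TGACG in capitals, the core of the site through which the factor CREB acts, searched on both strands and held by 17.8% of the 32851 windows. Fos held 2 matches, 129 and 66 bases before the start (chr12:85473640-85473889, plus strand), and Cyr61, whose current symbol is Ccn1, held 1, at 58 bases (chr3:145649986-145650235, minus strand).
Fos: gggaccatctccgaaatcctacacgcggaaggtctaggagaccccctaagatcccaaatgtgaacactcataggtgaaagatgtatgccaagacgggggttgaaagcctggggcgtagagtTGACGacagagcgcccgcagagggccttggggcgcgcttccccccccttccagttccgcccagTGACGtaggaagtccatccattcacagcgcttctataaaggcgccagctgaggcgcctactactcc
Ccn1: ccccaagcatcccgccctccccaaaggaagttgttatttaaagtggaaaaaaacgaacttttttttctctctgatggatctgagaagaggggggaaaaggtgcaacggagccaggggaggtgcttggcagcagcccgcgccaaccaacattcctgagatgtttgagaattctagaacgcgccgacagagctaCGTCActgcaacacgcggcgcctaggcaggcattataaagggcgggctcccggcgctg

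Among the other inducible transcription factor genes, Nr4a3 had 1369 counts in L and 1143 in C (0.37, interval 0.26 to 0.49), beyond its homogenate SD of a difference of 0.14. Egr1, the most used marker of plasticity among the zinc finger factors, had 1406 counts in L and 1278 in C (0.25, interval 0.14 to 0.36), and Junb had 308 in L and 265 in C (0.33, interval 0.09 to 0.57). These ratios were small, and those of Egr1 and Junb lay within their homogenate SDs of 0.41 and 0.53. Nr4a1 had 525 counts in L and 508 in C, and its interval of -0.02 to 0.34 held 0. Egr2, named after its values were seen, had 81 counts in L and 30 in C (1.48, interval 0.93 to 2.20), below the 10 CPM limit.

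Of the genes whose products act at the synapse or in signalling, Arc had 1808 counts in L and 1718 in C (0.19, interval 0.09 to 0.28), Homer1, a scaffold gene of the postsynaptic density, 2606 in L and 2432 in C (0.21, interval 0.13 to 0.29), and Ptgs2, the inducible cyclooxygenase gene, 709 in L and 610 in C (0.33, interval 0.17 to 0.49). The ratios of Arc and Ptgs2 lay within their homogenate SDs of a difference of 0.45 and 0.48. That of Homer1 was just beyond its own of 0.19. The neuron-specific transcription factor gene Npas4 stood the other way, with 108 counts in L and 141 in C (-0.27, interval -0.65 to 0.10), and so did the neurotrophin gene Bdnf, with 556 in L and 660 in C (-0.13, interval -0.30 to 0.03). The intervals of both held 0. The list was thus not higher throughout: 7 of its 30 genes lay below 0.

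On day 1 the same 30 genes had been lower in L, with 4 above 0 and a median of -0.26, against 46.6% above 0 over the 9306 genes. Arc had 1317 counts in L and 3030 in C on day 1 (log2 ratio -1.05), and Egr1 1147 in L and 1850 in C (-0.54). Each day is 1 pair of libraries, and the difference between the days was not tested. On day 6, where 49.2% of 9304 genes had a ratio above 0 and the ratios spread far more widely, 20 of the 30 genes were above 0 with a median of 0.17.

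**Figure D3:**
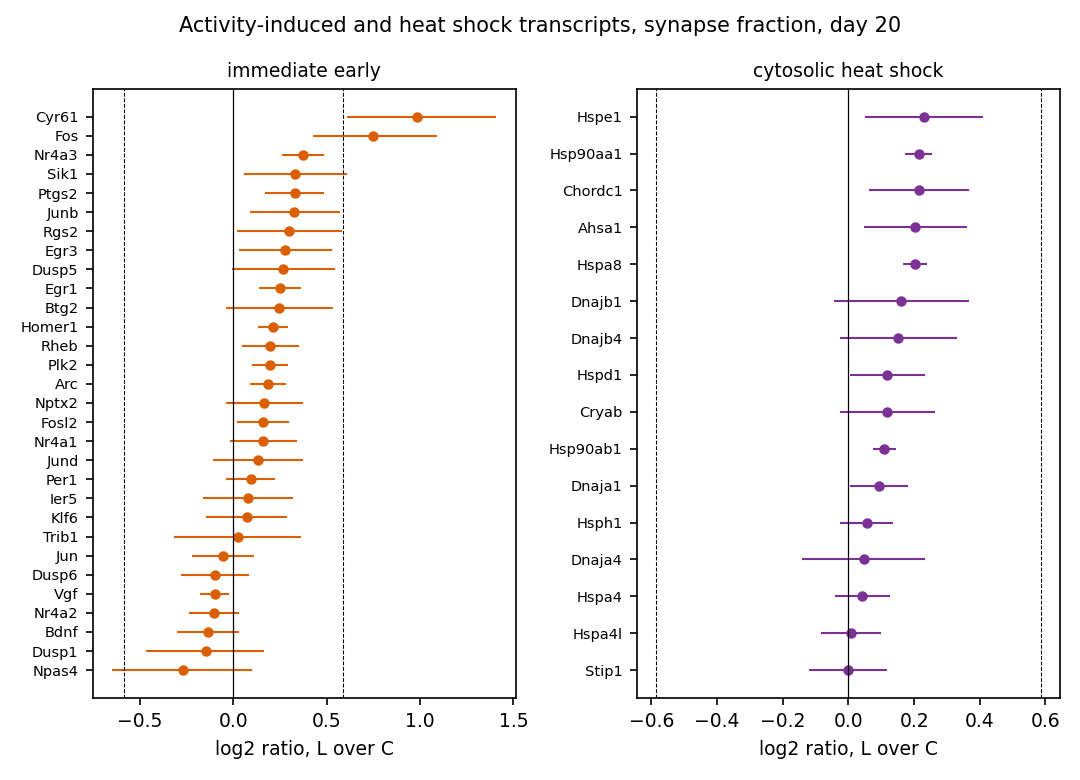
Log2 ratio of L over C (horizontal axis) with its 95% counting interval (bars) for the immediate early genes (left) and the cytosolic heat shock genes (right) kept at 10 CPM in the synapse fraction on day 20. Dashed lines mark 1.5-fold. Cyr61 and Fos lead the left panel at 0.99 and 0.75, 7 of its 30 genes lie below 0, and 15 of 16 genes of the right panel lie above 0.

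Transcripts of the choroid plexus, the epithelium that makes cerebrospinal fluid in the ventricles beside the hippocampus, were lower in L. All 18 members kept at 10 CPM had a ratio below 0, and 16 had a counting interval wholly below 0, beside 14.5% of all genes. Their median was -0.34. In a bulk library, fewer cells of a type and less RNA per cell cannot be told apart. Homogenates of 1 arm differed from each other in these genes by an SD of 0.54, more than the median of the day 20 pair.

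Ttr, the transthyretin gene and the most abundant secreted product of the plexus, stood at 4075 CPM in L and 5164 CPM in C (43086 and 59043 counts; log2 ratio -0.34, interval -0.36 to -0.32). Igf2, the growth factor gene made by the plexus and the meninges, had 2800 counts in L and 4574 in C (-0.59, interval -0.66 to -0.53). Aqp1, the apical water channel gene, had 234 counts in L and 371 in C (-0.55), and Cldn2, a tight junction gene, 243 in L and 378 in C (-0.52). The ratios of the 18 genes ran from -0.59 to -0.12.

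Transcripts of meningeal cells and fibroblasts were lower too. Of 25 kept, 4 were above 0 and 21 below, with 19 counting intervals wholly below 0 and 3 above, and the median was -0.31. Ptgds, the prostaglandin D synthase gene of the leptomeninges, stood at 969 CPM in L and 1546 CPM in C (10250 and 17675 counts; -0.67, interval -0.71 to -0.64). Fmod, a proteoglycan gene of collagen fibrils, had 552 counts in L and 1013 in C (-0.76, interval -0.92 to -0.61), and the organic anion transporter gene Slc22a6 had 132 in L and 237 in C (-0.72, interval -1.05 to -0.42). These 3 genes and Igf2 were the list's 4 members past 1.5-fold. The homogenate SD of a difference was 0.67 for the list and 2.37 for Fmod, both larger than the day 20 value, whereas it was 0.52 for Ptgds and 0.28 for Slc22a6.

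The 2 lists share Igf2 and Igfbp2. Without these, 0 of 16 choroid plexus genes (median -0.31) and 4 of 23 meningeal genes (median -0.27) were above 0. On day 1 both lists had stood the other way, with 15 of 18 choroid plexus genes above 0 (median 0.18) and 22 of 25 meningeal genes (median 0.35). On day 6 both stood as on day 20, with 5 of 18 choroid plexus genes above 0 (median -0.30) and 7 of 25 meningeal genes (median -0.17). Ptgds had 14186 counts in L and 9840 in C on day 1 (0.68). The part of dissected border tissue in these values was not tested.

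Ependymal genes, the markers of the ciliated cells that line the ventricles, gave little to compare, with 4 of 13 kept, 1 of them above 0 and a median of -0.13.

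**Figure D4:**
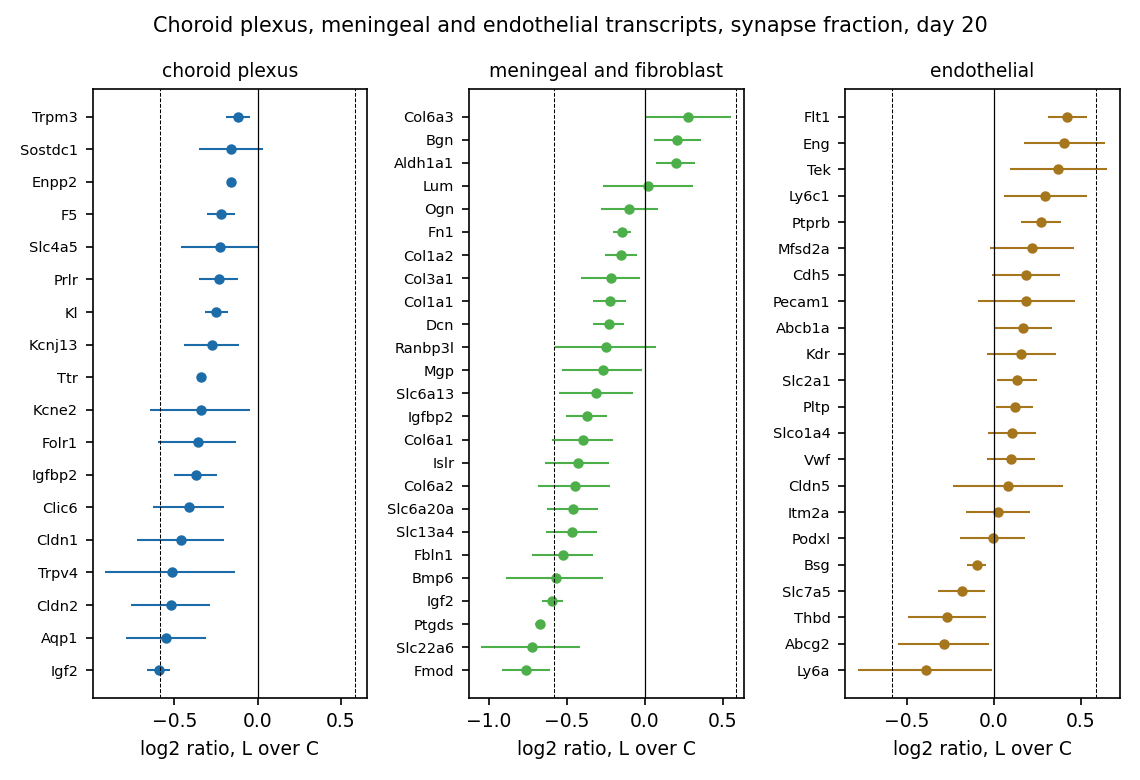
Log2 ratio of L over C (horizontal axis) with its 95% counting interval (bars) for choroid plexus, meningeal and fibroblast, and endothelial genes in the synapse fraction on day 20. Dashed lines mark 1.5-fold. All 18 choroid plexus genes lie below 0, with 21 of 25 meningeal genes, whereas 16 of 22 endothelial genes lie above 0.

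Endothelial transcripts did not go with those of the borders. Of 22 endothelial genes 16 were above 0, with a median of 0.12, beyond the homogenate SD of a difference of 0.07. The list was not higher throughout, with 8 counting intervals wholly above 0 and 5 wholly below. Flt1, a receptor gene for vascular endothelial growth factor, had 1490 counts in L and 1202 in C (0.42, interval 0.31 to 0.53). Its homogenate SD of a difference of 0.04 is small beside that interval and a weak yardstick. Tek, the angiopoietin receptor gene, had 237 in L and 198 in C (0.37, interval 0.09 to 0.65), and Ly6a, a surface protein gene of endothelium, was lower with 97 in L and 138 in C (-0.39, interval -0.79 to -0.01). The list was higher in L on day 1 as well, with 18 of 22 above 0 and a median of 0.37, and lower on day 6, with 7 of 21 above 0 and a median of -0.20. Mural cell genes went both ways, with 7 of 11 above 0, 2 counting intervals wholly above 0 and 4 below. Their median of 0.07 was within the homogenate SD of a difference of 0.15. The channel subunit gene Abcc9 had 346 counts in L and 261 in C (0.52), and the receptor gene Notch3 245 in L and 351 in C (-0.40).

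Of the antigen presentation list, 6 members were kept at 10 CPM, with 2 above 0 and a median of -0.13. Cd74, the invariant chain gene of class II molecules, had 76 counts in L and 152 in C (-0.87, interval -1.30 to -0.48). The class II genes H2-Aa (36 counts in L and 78 in C) and H2-Ab1 (32 in L and 63 in C), named after their values were seen, lay below 10 CPM. On day 1 all 3 had stood higher in L, with 147 counts of Cd74 in L and 82 in C. On day 6, Cd74 had 50 counts in L and 172 in C (-1.45), and 0 of the 6 genes kept on day 20 were above 0 (median -0.49). H2-Aa and H2-Ab1 stood at 1.17 and 1.53 on day 6. Of the class I genes on day 20, H2-K1 was at 345 counts in L and 367 in C (0.02) and B2m at 1329 in L and 1264 in C (0.19), while the peptide loading gene Tapbp was at 488 in L and 691 in C (-0.39, interval -0.56 to -0.22). Microglial genes, whose cells carry class II molecules when activated, stood at 12 of 22 above 0 with a median of 0.01.

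Synaptic transcripts, the material for which the fraction is made, differed little, and by component. Of 38 postsynaptic density genes 21 were above 0 with a median of 0.01, and Dlg4, the gene of the scaffold PSD-95, stood at 735 CPM in L and 734 CPM in C (0.00, interval -0.04 to 0.05). Dendritically localised mRNAs had a median of 0.00 with 13 of 23 above 0. Within the 2 lists, Homer3 was higher with 333 counts in L and 281 in C (0.36, interval 0.12 to 0.59) and Kcnj4, an inward rectifier channel gene, lower with 505 in L and 721 in C (-0.40, interval -0.57 to -0.23). Camk2a had 42567 counts in L and 42394 in C (0.12, interval 0.10 to 0.14), within its homogenate SD of a difference of 0.24.

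Adhesion molecules across the cleft were slightly lower in L. Of 29 kept, 6 were above 0, 16 had a counting interval wholly below 0 and 1 above, and the median was -0.09, against a homogenate SD of a difference of 0.05. Nlgn2, the neuroligin gene of inhibitory synapses, had 2501 counts in L and 3301 in C (-0.29, interval -0.36 to -0.21). The presynaptic partner gene Nrxn2 had 4348 in L and 5431 in C (-0.21), and Lrfn1, a postsynaptic leucine-rich repeat gene, 265 in L and 395 in C (-0.46, interval -0.69 to -0.23). The list was lower in L on day 1 too, with 1 of 29 above 0 and a median of -0.10, and on day 6, 12 of 29 were above 0 with a median of -0.03.

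Vesicle and release genes were lower by less, with 13 of 47 above 0 and a median of -0.05, against a homogenate SD of 0.03. Syt2, a fast calcium sensor gene of release, had 383 counts in L and 582 in C (-0.49, interval -0.68 to -0.30), and Rims3, an active zone gene, 553 in L and 809 in C (-0.43, interval -0.59 to -0.28). Atp6v0c, a subunit gene of the vesicular proton pump, had 3235 in L and 4473 in C (-0.35, interval -0.42 to -0.29), within its homogenate SD of a difference of 0.62.

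Among receptors, ionotropic and metabotropic glutamate receptor genes and their auxiliary subunits had 13 of 32 above 0 and a median of -0.03. Grin2a, an NMDA receptor subunit gene, had 5987 counts in L and 5042 in C (0.36, interval 0.31 to 0.42), and Cacng3, an auxiliary subunit gene of AMPA receptors, 440 in L and 692 in C (-0.54, interval -0.72 to -0.37). The ratio of Cacng3 exceeded its homogenate SD of a difference of 0.15, and that of Grin2a lay near its own of 0.33. GABA receptor genes had 4 of 15 above 0 (median -0.06), potassium channel genes 10 of 34 (median -0.07), with the sodium-activated channel gene Kcnt1 at 466 counts in L and 693 in C (-0.46), and monoamine and acetylcholine receptor genes 7 of 18 (median -0.09). Within the monoamine and acetylcholine list the nicotinic subunit gene Chrna4 had 408 counts in L and 597 in C (-0.43), and the serotonin receptor gene Htr2c 1393 in L and 1890 in C (-0.33).

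By neuron type, interneuron genes were mostly lower in L, with 4 of 18 above 0, 8 counting intervals wholly below 0 and a median of -0.13. Slc32a1, the vesicular GABA transporter gene, had 650 counts in L and 914 in C (-0.38, interval -0.53 to -0.23), and Sst, the somatostatin gene, 1230 in L and 1616 in C (-0.28, interval -0.39 to -0.17). The median was within the homogenate SD of a difference for the list, 0.24. CA1 genes had 5 of 14 above 0 (median -0.10), CA2 and CA3 genes 7 of 13 (median 0.01) and dentate gyrus genes 11 of 17 (median 0.02). Cpne4, a calcium-binding copine gene of the CA2 and CA3 list, was higher with 1128 counts in L and 931 in C (0.39, interval 0.26 to 0.52). Its homogenate SD of a difference of 0.05 is small beside that interval and a weak yardstick.

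Glial lists were near even. Astrocyte genes had 15 of 26 above 0 (median 0.02), with Gfap, the intermediate filament gene, at 696 CPM in L and 674 CPM in C (0.04, interval 0.00 to 0.09). Oligodendrocyte genes had 11 of 25 above 0 (median -0.01), with Mbp at a ratio of 0.17. Gpr17, a receptor gene of differentiating precursors, was lower with 852 counts in L and 1215 in C (-0.40, interval -0.53 to -0.27).

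Cytosolic heat shock genes were higher in L by a small amount, with 15 of 16 above 0, 8 counting intervals wholly above 0 and 0 below. The median was 0.12, against a homogenate SD of a difference of 0.08. Hsp90aa1, the inducible HSP90 gene, had 9714 counts in L and 9056 in C (0.21, interval 0.17 to 0.26), and Hspa8, the constitutive HSC70 gene, 12131 in L and 11404 in C (0.20, interval 0.17 to 0.24). On day 1, 12 of 16 were above 0 with a median of 0.07, and on day 6, 7 of 16 with a median of -0.04. Genes that glucocorticoids induce had 9 of 14 above 0 (median 0.12, within a homogenate SD of a difference of 0.20), among them the kinase gene Pdk4 with 349 counts in L and 281 in C (0.42) and the NF-kB inhibitor gene Nfkbia with 285 in L and 220 in C (0.48). On day 1, 0 of the 14 were above 0, with a median of -0.35, and on day 6, 10 of the 14, with a median of 0.28.

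Genes of protein synthesis were mostly a little higher in L. Translation factor genes had 29 of 35 above 0 (median 0.06), cytosolic ribosomal protein genes 53 of 76 (median 0.04) and mitochondrial ribosomal protein genes 39 of 54 (median 0.09). All 3 medians were within their homogenate SDs of a difference, which were 0.06, 0.24 and 0.12. Mrps31, a mitochondrial ribosomal protein gene, stood apart with 185 counts in L and 105 in C (0.92, interval 0.58 to 1.29), against a homogenate SD of 0.23. The translation factors ran from Eif2s3x with 833 counts in L and 1188 in C (-0.40) to Eif1 with 2309 in L and 1970 in C (0.34). RNA granule and local translation genes had 15 of 24 above 0 (median 0.04, against a homogenate SD of a difference of 0.03), led by Stau1, a carrier gene of dendritic RNA, with 730 counts in L and 668 in C (0.24, interval 0.09 to 0.39).

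Respiratory chain transcripts of the nucleus had 40 of 70 above 0 and a median of 0.05. Of 5 mitochondrially encoded genes listed, 4 were above 0, with mt-Nd3 at 2568 counts in L and 1605 in C (0.79, interval 0.70 to 0.88) and mt-Co3 at 34065 in L and 37114 in C (-0.01). Their summed share of the counts was 2.71% in L and 2.36% in C. Homogenates of 1 arm differed in these genes by an SD of 1.58 log2 units, and reads of nuclear copies of mitochondrial DNA were not told apart.

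The remaining genes at the top of the pair belonged to no common list. Hist1h2bc, a histone gene with near-identical copies whose reads may be split, had 392 counts in L and 239 in C (0.82), and Mvk, the mevalonate kinase gene of cholesterol synthesis, 150 in L and 96 in C (0.74). Zfp810, Nudt10, Mfap1b, Tmem258, Tdp1, Zrsr2 and Alg14 followed, at 0.64 to 0.74. Mfap1b has a near-identical copy, and Tmem258 overlaps an exon of Fen1 on the other strand, which this counting may not tell apart.

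At the bottom stood Tom1, an endosomal adaptor gene, with 106 counts in L and 249 in C (-1.11, interval -1.46 to -0.79). Acpl2 had 100 counts in L and 229 in C (-1.07, interval -1.44 to -0.74), and Synpo2, an actin-binding protein gene, 75 in L and 161 in C (-0.97, interval -1.40 to -0.59). Tom1 lies at chr8:75033705-75070121 on the plus strand of GRCm38 and overlaps an exon of Gm45822 on the other strand. The ratio of Acpl2 (chr9:96823336-96892669, minus strand) was beyond its homogenate SD of a difference of 0.08, and those of Tom1 and Synpo2 beyond theirs of 0.48 and 0.42. The SD of Acpl2 is small beside its own counting interval, so it is a weak yardstick for this gene. Further down were Ptk7 (125 counts in L and 259 in C), Prkrip1 (84 in L and 174 in C), Bmp3 (77 in L and 159 in C) and Polr2l (82 in L and 167 in C), at -0.93 to -0.90. Prg4, Rxfp1, Cdh1, Serpind1 and Cyp4x1 followed, at -0.81 to -0.75. The ratios of Cdh1 and Serpind1 lay within their homogenate SDs of a difference. Those of Ptk7, Prkrip1, Bmp3, Polr2l, Prg4, Rxfp1 and Cyp4x1 were beyond theirs.

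These genes did not stand out in the same way on the other days. Of the 60 genes at least 1.5-fold lower in L on day 20, 34 were above 0 on day 1 with a median of 0.07, and 30 were above 0 on day 6. Of the 20 higher genes, 10 were above 0 on day 1 and 11 on day 6. Over all genes kept on day 20, 46.6% were above 0 on day 1 and 49.2% on day 6, so these counts lay near the share of all genes. Across the 9154 genes at 10 CPM on both days, the day 20 and day 1 ratios had a Spearman rho of 0.10, with 5019 genes in the same direction, and across the 7869 genes shared with day 6 a rho of 0.02. Genes are not independent replicates, and the days share no library. The ratios were about as tight on day 20 as on day 1, with a median absolute deviation of 0.11 on each, against 0.30 on day 6.

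Set side by side, 7 of the 39 lists with at least 10 members had a day 20 median beyond the SD of a difference between homogenates of 1 arm, and 0 had one beyond 2 such SDs. The 7 were the immediate early, cytosolic heat shock, endothelial and RNA granule lists, which were higher in L, and the synaptic adhesion, synaptic vesicle and glutamate receptor lists, which were lower. The choroid plexus and meningeal lists had the largest medians, and also the largest spread between homogenates. Mettl3, the catalytic subunit gene of the m6A writer, had 134 counts in L and 172 in C (-0.24, interval -0.58 to 0.09), and the m6A list had 8 of 15 above 0 with a median of 0.04.

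**Figure D5:**
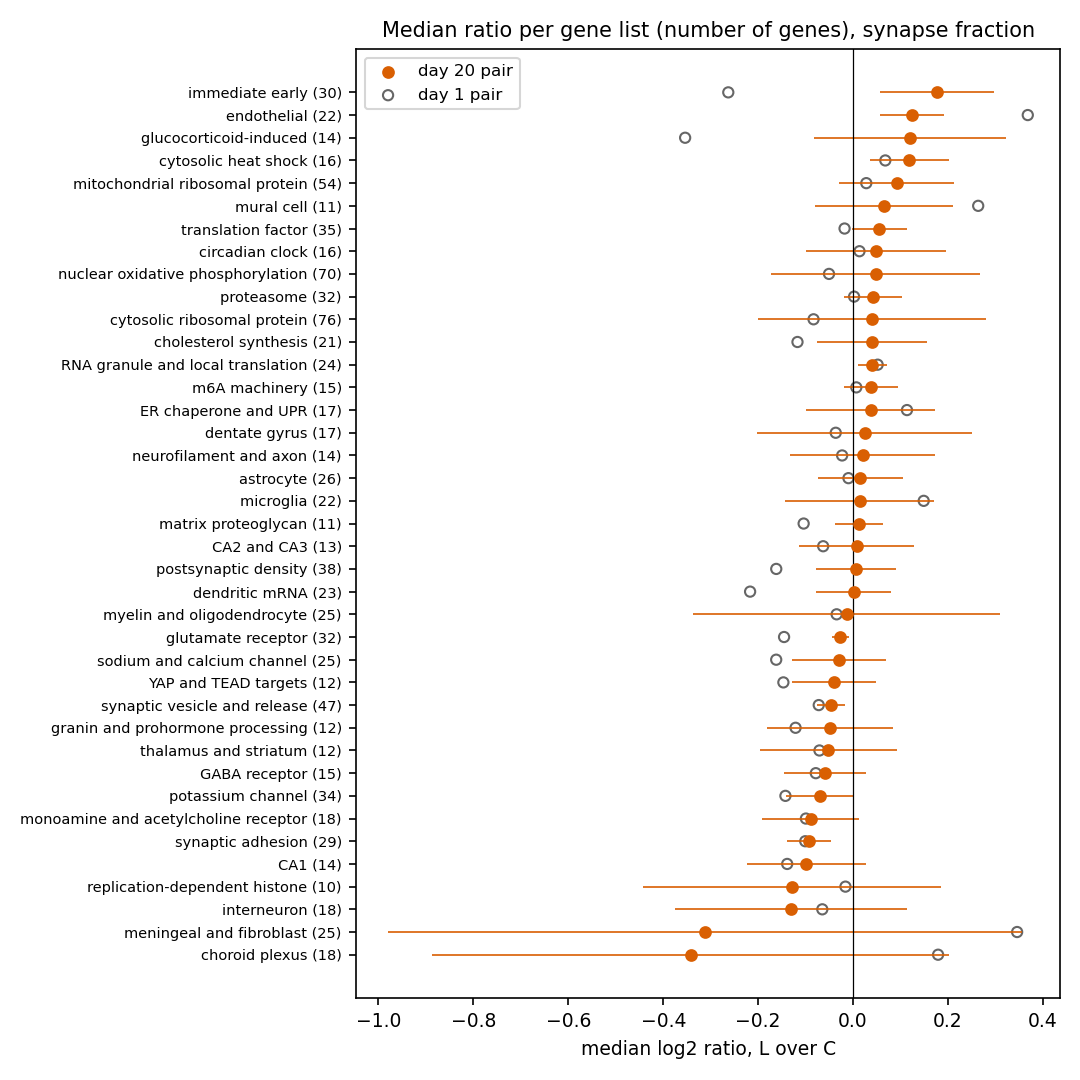
Median log2 ratio of L over C (horizontal axis) of each gene list with at least 10 members in the synapse fraction, on day 20 (filled points) and on day 1 (open points), with the number of genes in brackets. Bars show the SD of a difference between day 6 homogenates of 1 arm for that list. The bars of 7 lists leave 0 on day 20, and those of the choroid plexus list (-0.34) and meningeal list (-0.31) cross it.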

How the data were processed

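Per the labels' protocols, ribosomal RNA was removed from total RNA, which was fragmented and turned into dUTP-stranded libraries with random primers. Per the submitters' processing notes, the tools were HISAT2 2.0.4, cutadapt 1.9.3, edgeR and HTSeq 0.9.1, and the build was mm10. Not given in the sources used here are the annotation release, whether strand was used in counting, and gene filters, so genes that overlap on opposite strands were not told apart (73 of the 286 genes that the naming rule gave). The values deposited by the authors are raw counts per gene, in 4 tables normalized here each on its own, and 0 columns were left unmapped. Samples were placed by their titles.

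Scaling used TMM in edgeR 4.0.16 (R 4.3.3) and, as an alternative, DESeq2 1.42.0 size factors. Python 3.11.15 with scipy 1.17.1 gave the exact intervals, whose coverage was checked on simulated counts that held counting error only. That check could not show how the intervals hold with PCR copies or with differences between preparations. The 48 gene lists and the members were chosen with earlier results of these data known. The naming rule took the 15 highest and 15 lowest ratios (leaving out predicted genes, pseudogenes and small RNAs), up to 6 members of each list with the largest ratio, and Arc, Bdnf, Camk2a, Dlg4, Egr1, Fos, Gfap, Mbp, Mettl3, Npas4, Nr4a1 and Ttr. A gene that this rule gave is not reported here. Other genes named serve to show a level or carry a remark that they were picked after their values were seen. A list's median was set against the SD of a difference between homogenates of 1 arm (3 libraries each). Coordinates are those of GENCODE M21 (GRCm38), found for 285 of 286 named genes. Promoters came from RefSeq, for 6 of 7 genes looked up (all but Gh).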

Additional observations from a re-analysis of the deposited data

Results flagged for a closer look

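The following values of the day 20 pair had the opposite sign on day 1, and none of these differences was tested. Among lists, the immediate early median was 0.18 on day 20 and -0.26 on day 1, the choroid plexus median was -0.34 and 0.18, the meningeal and fibroblast median was -0.31 and 0.35, and the mitochondrially encoded median was 0.23 and -0.18. On day 6 these medians were 0.17 (immediate early), -0.30 (choroid plexus), -0.17 (meningeal and fibroblast) and -0.26 (mitochondrially encoded).

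Of the 9154 genes at 10 CPM on both days, 9 were past 1.5-fold on both, 6 in opposite directions and 3 in the same direction. Over all 9154 genes, 5019 had the same direction. The number past 1.5-fold on day 1 is not given here, so these 9 have no expected number beside them. The 6 opposite genes are named next, and 2 of the 3 others carry no gene name. Prl stood at 4.17 on day 20 and -1.76 on day 1, and Gh at 3.48 and -1.06. Fmod stood at -0.76 and 0.70, and Ptgds at -0.67 and 0.68. Sgpp2, a sphingosine phosphatase gene, stood at -0.74 and 0.66, and Rbp4, the gene of the plasma retinol carrier, at -0.65 and 0.61. On day 6 the ratios were -1.59 for Prl, 0.76 for Gh, 0.05 for Fmod, -0.22 for Ptgds, -0.90 for Sgpp2 and -0.03 for Rbp4.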

How the results depend on the processing

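No paired analysis was possible because each arm has 1 library and no test was made. The counts past a fold limit depended on the minimum level. With a minimum of 5 CPM (10820 genes), 81 genes were at least 1.5-fold higher in L and 155 lower, and 7 and 12 were past 2-fold. With 20 CPM (7238 genes), 7 were higher and 17 lower past 1.5-fold, and 0 were lower past 2-fold. With no minimum (17130 genes), 1432 were higher and 1349 lower past 1.5-fold, and 519 and 518 past 2-fold, since genes of a few counts then enter. Scaling by library totals or by DESeq2 size factors shifted the median ratio by -0.01 and 0.00. No ratio past 1.5-fold and no list median beyond its homogenate SD changed sign. The medians of 6 lists did, among them the histone median (-0.13, and 0.02 at 20 CPM), the liver median (-0.16, and 0.03 with no minimum), and, with library totals, the postsynaptic density, dendritic mRNA, and CA2 and CA3 medians, as did the ratio of Dlg4. Over all alternatives, 1933 recomputed ratios of single genes lay within the counting interval of the gene. In the same way, 335 recomputed list medians lay within the SD of single homogenates of 1 arm for the list. That SD is smaller than the SD of a difference used above, and was 0.22 for the histone list and 0.28 for the liver list. The m6A machinery median (0.04, SD of single homogenates 0.04) moved beyond that SD, to 0.09 at 20 CPM. Its SD of a difference was larger, at 0.06. A prior count of 0.5 and the genes common to all 4 tables were also tried. At 10 to 20 CPM the counting interval reached a median of 0.33 log2 units to each side, which limits what can be told apart from 0 there.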

Other observations

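Among genes of 2 to 10 CPM, which the description of the pair leaves out, 35 of 2936 were at least 2-fold higher in L and 62 at least 2-fold lower with a counting interval apart from 0.

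Genes of cholesterol synthesis, a pathway that astrocytes run for neurons, had 13 of 21 above 0 with a median of 0.04 but went both ways. Hmgcs1, the synthase gene at the head of the pathway, had 4170 counts in L and 3862 in C (log2 ratio 0.22, interval 0.16 to 0.29), and Idi1, an isomerase gene of the middle steps, 684 in L and 1100 in C (-0.57, interval -0.71 to -0.43). The first exceeded its homogenate SD of a difference of 0.11 and the second did not exceed its own of 0.91. Clock genes had 10 of 16 above 0 (median 0.05), with the output gene Dbp at 323 counts in L and 276 in C (0.34, interval 0.10 to 0.58) and the activator gene Npas2 at 434 in L and 574 in C (-0.29, interval -0.47 to -0.11). Both ratios lay within their homogenate SDs of a difference, 0.40 for Dbp and 0.60 for Npas2. Chaperone genes of the endoplasmic reticulum had 12 of 17 above 0 (median 0.04), with Hspa5, the master chaperone of that compartment, at 7676 counts in L and 6944 in C (0.26, interval 0.21 to 0.30). The ratio of Hspa5 lay within its homogenate SD of a difference of 0.28. Proteasome genes had 19 of 32 above 0 (median 0.04), and neurofilament and axon genes 8 of 14 (median 0.02).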
